A study of Mus musculus with 4 samples.

Results

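Complement components and receptors were examined in mouse embryo brains of embryonic day 14.5, with or without a Cre driver that acts on floxed alleles of the transcription factors Sox4 and Sox11. All probe sets whose symbol in the platform's probe-to-gene table was exactly C1qa, C1qb, C1qc, C3, C4b, C3ar1, C5ar1 or Serping1 were taken, which gave 11 of the 45037 probe sets that are not array controls. They cover 6 of the 8 genes. No probe set is listed under C3 alone, and C4b is listed only on a probe set that also carries the symbol C4a, so C3 and C4b were not analysed here. The genes had been chosen with the difference between the genotypes already known, so their values are given as a description and without a test.

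The complement system is a cascade of plasma proteins that tags particles and cells for uptake. C1q, built from A, B and C chains, recognises a target and starts the classical pathway through the proteases C1r and C1s, which cleave C4 and C2. Cleaved C3 then coats the target, the fragments C3a and C5a signal through their receptors, and inhibitors such as Serping1 (C1 inhibitor) restrain the proteases. In brain, C1q is made mainly by microglia, and complement is known there for its part in the removal of synapses and debris.

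The 4 Affymetrix arrays held total RNA on a mixed 129SvJ/C57Bl/6J background. The 2 control arrays came from embryos of the genotype Sox4 flox/flox; Sox11 flox/flox, and the 2 arrays called knockout here from embryos that carried these alleles together with Brn4::Cre, a driver named for Brn4 (Pou3f4). Both groups thus carry floxed alleles, no array has Cre without them, and the labels do not name the cells in which the driver acts. The samples are called biological replicates, with neither the number of embryos in each nor their sex given, so the spread between arrays may in part be technical. The comparison addresses how gene expression differs between the genotypes.

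Values are MAS5 signals in linear units. Array medians lay between 262.6 and 287.6, and log2 signals correlated at 0.984 within the controls and 0.987 within the knockouts, against 0.96 to 0.963 across groups. These correlations are over probe sets, which are not independent replicates. Of the targeted genes, Sox11 fell at all 6 of its probe sets, and at its brightest probe set it went from 25774 ± 457 to 9899 ± 576 (SD, n = 2 each; limma adjusted p = 2.96e-06). Of 6 tested probe sets of Sox4, 4 fell (log2 change -2.69 to -1.09), 1 rose (1.83), and the brightest did not pass (0.09 ± 0.05, SE, adjusted p = 0.242). Which of them lie in the deleted part is not known here, and both genes still gave signal in the knockout extracts. All 10 young neuron markers had signals of at least 3446 on every array, which checks the label of brain.

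All 3 chains of C1q were higher in the knockout brains, by 3.34-fold to 5-fold over their 5 probe sets. C3ar1, the receptor of C3a, was 2.07-fold to 2.88-fold higher over 3 probe sets. Serping1 differed 1.2-fold, and C5ar1, the receptor of C5a, had low signals in both groups. Fold changes are on the scale of log2(signal + 16), which understates differences at low signals. The levels of different probe sets are not compared, since each binds its target with its own efficiency.

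C1qa encodes the A chain. Its signals were 492.2 and 501.4 in the controls and 2293.7 and 2193.5 in the knockouts. Each knockout array lay 4.27-fold to 4.54-fold above each control array. The log2 change was 2.14 ± 0.12 (SE of the limma fit), with group means of 496.8 ± 6.51 and 2244 ± 70.9 (SD, n = 2 each).

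C1qb encodes the B chain and has 3 probe sets. At 1417063_at the signals were 808.1 and 850.9 in the controls and 3620.8 and 3188.7 in the knockouts, a log2 change of 2.01 ± 0.12. At 1437726_x_at they were 503.6 and 450.9 against 2473.2 and 2417.1, a log2 change of 2.32 ± 0.13. At 1434366_x_at they were 566.8 and 530 against 1846.2 and 1887.1, a log2 change of 1.74 ± 0.13. The 3 probe sets of this gene therefore all separated the groups but differed in size, from 3.34-fold to 5-fold. The x in an identifier marks probes that can also bind related transcripts.

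C1qc encodes the C chain. Its signals were 421.9 and 655.1 in the controls and 2047.8 and 1917.9 in the knockouts. The controls differed more here than at any other C1q probe set (538.5 ± 165, SD, n = 2), and the groups did not overlap. The log2 change of 1.88 ± 0.18 was 1.57 without control 1 and 2.19 without control 2. Each knockout array lay 2.88-fold to 4.71-fold above each control array.

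Averaged over the 3 chains at their brightest probe sets, the arrays lay at -0.12 and 0.12 (controls) and at 2.07 and 1.95 (knockouts) on the log2 scale relative to the control mean. The mean log2 change was 2.01, against a spread between replicates of 0.13 (SD). The changes of the chains were 2.14 ± 0.12, 2.01 ± 0.12 and 1.88 ± 0.18 (SE), and the differences among them were not tested. Their order was not fixed, since without control 2 the lowest chain was C1qb (2.05).

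**Figure D1:**
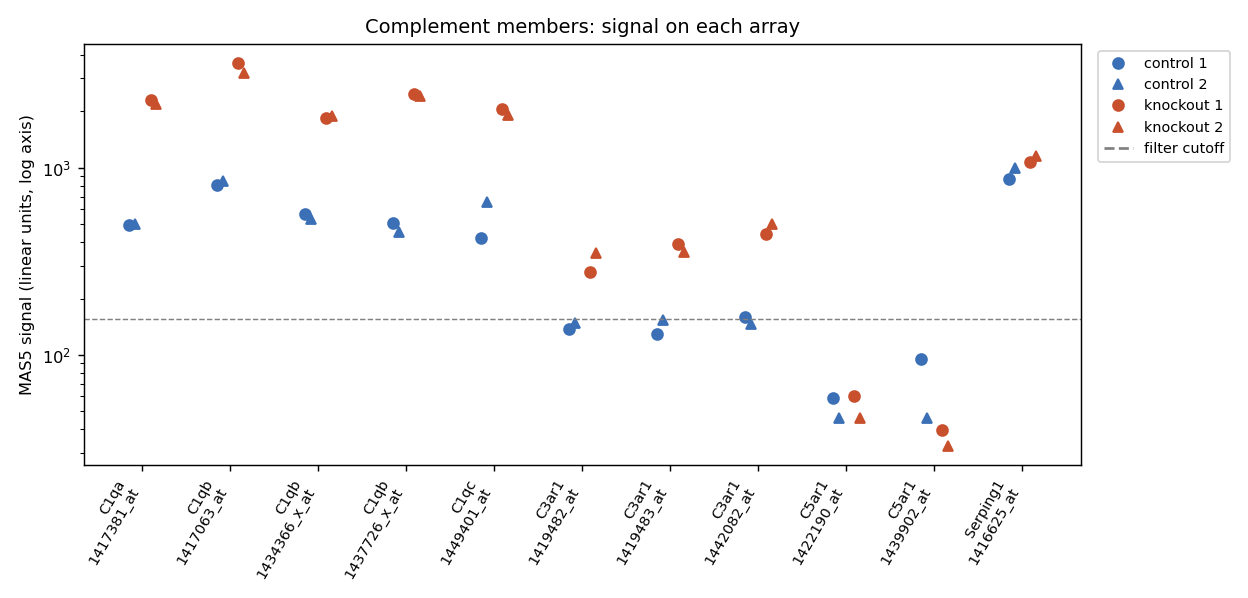
MAS5 signal on a log axis for each of the 11 complement probe sets, with control arrays in blue and knockout arrays in orange, and circles and triangles for replicates 1 and 2. The dashed line is the signal of 154.6 that a probe set had to exceed on average to be tested, and the C1q points of the groups lie furthest apart.

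C3ar1, a G protein-coupled receptor found on microglia and macrophages, was dim in the controls. At 1442082_at, its brightest probe set, the signals were 159.4 and 146 in the controls and 439.8 and 501.8 in the knockouts, a log2 change of 1.53 ± 0.22. At 1419483_at they were 128.8 and 153.5 against 391.1 and 356.4 (1.31 ± 0.23). At 1419482_at they were 138 and 147.2 against 276.4 and 350.7 (1.05 ± 0.25). Both knockout arrays lay above both controls at all 3. The control mean of all 3 lay below the cutoff of 154.6, so they were bright enough to be tested only through the knockout arrays.

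C5ar1 was not bright enough to be tested at either probe set. The signals at 1422190_at were 59.2 and 45.8 in the controls and 60.4 and 45.9 in the knockouts, and the groups overlapped. At 1439902_at they were 95 and 45.8 against 39.7 and 32.8, so that both knockout arrays lay below both controls and control 1 stood above the other three. Over 13 other settings of the processing the log2 difference ranged from -0.14 to 0.16 at 1422190_at and from -1.09 to -0.25 at 1439902_at. The probe sets thus differ, and at these low signals no direction is given for C5ar1.

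Serping1, the inhibitor of C1r and C1s, is also made by cells outside the microglia. Its signals were 865.9 and 995.3 in the controls and 1073.1 and 1158.4 in the knockouts. The knockout arrays were the higher ones, by 1.08-fold to 1.33-fold over all pairs of a knockout and a control. The log2 change was 0.26 ± 0.13, and it was 0.16 without control 1.

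On average the C1q chains had a larger difference than the other complement genes of the set. Their mean log2 change exceeded that of C3ar1 and Serping1 by 1.12. With C5ar1, which was too dim to be tested, among the others this gap was 1.41 (1.61 with each gene as the mean of its probe sets). Not every chain stood clear of C3ar1. The changes of C1qc and of C3ar1 at its brightest probe set were 1.88 ± 0.18 and 1.53 ± 0.22. Without control 1 they were 1.57 and 1.58. The other probe sets of C3ar1 lay lower, at 1.31 and 1.05, and the difference between the genes was not tested. Of the 27022 probe sets tested 11.7% rose and 23.2% changed in either direction, at an adjusted p under 0.05 in limma. In 9 of the 11 both knockout arrays lay above both controls, which held for 25.4% of all probe sets. Nothing about the members is read from these shares, because the genes were chosen on the same comparison. The median log2 change over all tested probe sets was -0.01.

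C1qb, C1qc and C1qa lie next to each other on chromosome 4. The 250 bases before the gene start are shown for the 2 C1q genes with a RefSeq window (GRCm38.p6), followed by C3ar1, as the members that were higher in the knockouts. RefSeq windows were matched for 5 of the 8 genes. Capitals mark matches on either strand to GAGGAA, the core bound by PU.1-type ETS factors of myeloid cells, to TGCTGA, a core of the Maf recognition element, and to TGANTCA, the AP-1 motif; TTCNNNGAA, a Stat motif, was searched too.

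C1qb, chr4:136886201-136886450, minus strand: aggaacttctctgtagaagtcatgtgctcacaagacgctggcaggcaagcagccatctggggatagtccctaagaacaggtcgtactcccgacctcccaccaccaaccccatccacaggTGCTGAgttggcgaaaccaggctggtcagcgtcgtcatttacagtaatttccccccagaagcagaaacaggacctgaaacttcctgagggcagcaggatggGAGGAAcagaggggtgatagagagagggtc
C1qc, chr4:136892915-136893164, minus strand: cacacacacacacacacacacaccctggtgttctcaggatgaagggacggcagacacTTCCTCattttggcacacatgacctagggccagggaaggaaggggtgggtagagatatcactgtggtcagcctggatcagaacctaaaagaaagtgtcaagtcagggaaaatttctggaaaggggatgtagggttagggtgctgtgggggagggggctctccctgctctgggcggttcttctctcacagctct
C3ar1, chr6:122856158-122856407, minus strand: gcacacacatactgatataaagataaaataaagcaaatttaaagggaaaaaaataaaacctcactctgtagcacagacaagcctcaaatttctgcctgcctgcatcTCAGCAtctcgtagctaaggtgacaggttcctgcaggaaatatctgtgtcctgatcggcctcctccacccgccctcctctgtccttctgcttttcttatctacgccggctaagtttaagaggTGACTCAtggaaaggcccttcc

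GAGGAA begins 30 bases before the C1qb start and, on the opposite strand, 193 bases before that of C1qc. It is in 23.3% of the 32851 windows of this length. TGCTGA begins 131 bases before the C1qb start and, on the opposite strand, 144 bases before that of C3ar1, and is in 16.1% of windows. TGANTCA begins 22 bases before the C3ar1 start and is in 6.75% of windows. TTCNNNGAA, in 7.02% of windows, has no match in the 3 windows shown. C5ar1 and C3 each hold 1 match to TGCTGA and none to GAGGAA. The matches overlap no other motif, and each is a description of letters.

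The genes that flank the C1q cluster were examined for the same difference. The 6 protein-coding neighbours on either side in the RefSeq order were looked up after the values had been seen, and 7 of the 12 could be tested. By limma 0 rose (1 was higher at an unadjusted p under 0.05), and Luzp1, a leucine zipper protein, and Kdm1a, a histone demethylase, fell. Over all genes tested 16.3% rose and 11% fell. Luzp1 read 1111.2 and 1042 in the controls and 763 and 812.6 in the knockouts (log2 change -0.44 ± 0.13, limma adjusted p = 0.0342). Its call was lost whichever array was left out (-0.49 to -0.40), and the change was -0.95 with its probe sets averaged. Kdm1a read 12010.8 and 13021.2 against 9858.8 and 8775.2 (-0.43 ± 0.08, adjusted p = 0.0045). Neither was called without the variance trend of the limma fit. Epha8, the next gene beyond C1qa, had a log2 change of -0.24 ± 0.20 (adjusted p = 0.425).

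**Figure D2:**
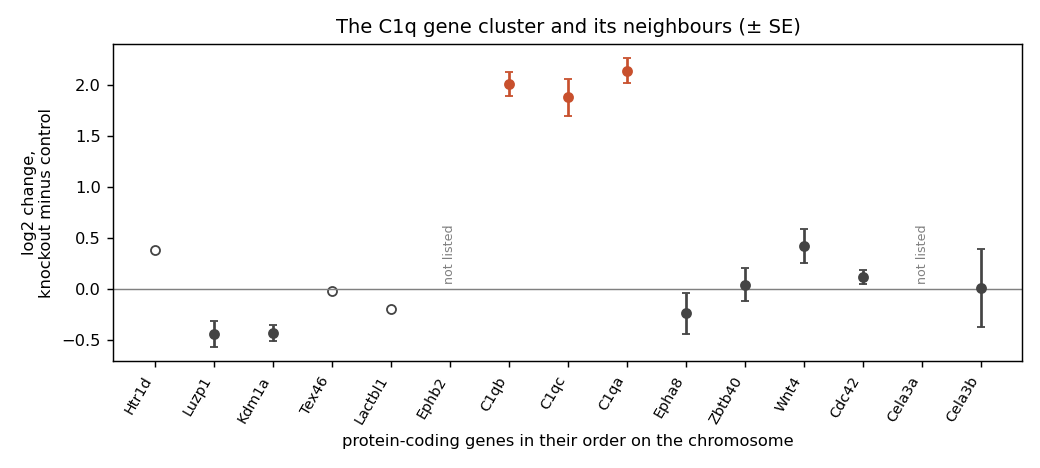
Log2 change (knockout minus control, ± SE) of the 3 C1q genes, in orange, and of the 6 protein-coding genes on either side, in chromosome order without scale. Open circles are genes too dim to be tested and carry no SE, and the C1q genes stand at 1.88 to 2.14 while the neighbours lie between -0.44 and 0.42, each gene at its brightest probe set.

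The other genes of the pathway were counted from a list of 54. A probe set of their own was listed for 45, of which 19 were bright enough to be tested. Of these 19, 4 rose, 2 fell and 13 did not pass, and the median log2 change was -0.03. The share that rose, 21.1%, compares with 16.3% of the 12489 genes tested, and the share that changed, 31.6%, with 27.3%. Over all genes 11% fell and the median was 0.06.

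Classical and terminal components outside C1q were at low signals. C1ra and C1s1, the proteases bound to C1q, and C2 were at most 178.4 on every array at their brightest probe sets and were not tested. The 6 terminal components with a probe set were Hc (which encodes C5), C6, C8a, C8b, C8g and C9, and none was bright enough. In the lectin pathway 4 of 9 genes were tested and 0 changed by limma (1 at an unadjusted p under 0.05), as for Masp1, a protease of that pathway (log2 change 0.30 ± 0.11, adjusted p = 0.0627). In the alternative pathway Cfp (properdin), which stabilises the C3 convertase, fell from 1816.6 and 1921.9 to 1453 and 1297.7 (-0.44 ± 0.12, adjusted p = 0.0212). Of the 2 tested probe sets of Cfp 1 fell.

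Among receptors and binding proteins of complement, 1 of 5 tested rose. Calr (calreticulin), which binds C1q at the cell surface, read 13659.9 and 13177 in the controls and 16487.1 and 16907.2 in the knockouts (0.32 ± 0.06, adjusted p = 0.00641). Cd93, read at its brightest probe set, did not pass (0.31 ± 0.11, adjusted p = 0.0565) while 1 of its 2 tested probe sets rose. Lrp1 did not pass either (-0.27 ± 0.11, adjusted p = 0.11), and 1 of its 2 tested probe sets fell. Itgam and Itgb2, the subunits of complement receptor 3, were too dim to be tested. Itgb2 read 97.6 and 53.6 against 178.4 and 115.9, with no overlap, while the groups overlapped at Itgam.

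Among regulators, 3 of 9 tested rose and 1 fell. Clu (clusterin), an inhibitor of the membrane attack complex that astroglia make, went from 1741.2 and 2012.5 to 3574.4 and 3231.6, a log2 change of 0.85 ± 0.11 (adjusted p = 0.000598), and all 4 of its probe sets rose. Vtn (vitronectin), another inhibitor of that complex and a product of pericytes, went from 2334.6 and 2618 to 3567.8 and 3545.6 (0.52 ± 0.10, adjusted p = 0.00453). Of the 2 tested probe sets of Vtn 1 rose. Cr1l (Crry), which blocks C3 deposition on mouse cells, went from 1401.4 and 1285 to 1933.9 and 1845.4 (0.49 ± 0.11, adjusted p = 0.0122). Csmd3, a neuronal protein with complement-control domains, went from 1203 and 1381.9 down to 878.7 and 925.3 (-0.51 ± 0.13, adjusted p = 0.0189).

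Of the 6 calls outside the members, 1 remained in limma without the variance trend, that of Clu, which was also kept in all 14 alternatives. Leaving out control 2 gave 3 calls, leaving out knockout 1 gave 4 and leaving out knockout 2 gave 3. Cr1l was lost in each of these (0.43, 0.45 and 0.52), as was Csmd3 (-0.41, -0.47 and -0.55). Cfp was lost without control 2 (-0.40) or knockout 2 (-0.36) and with its probe sets averaged (-0.34).

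**Figure D3:**
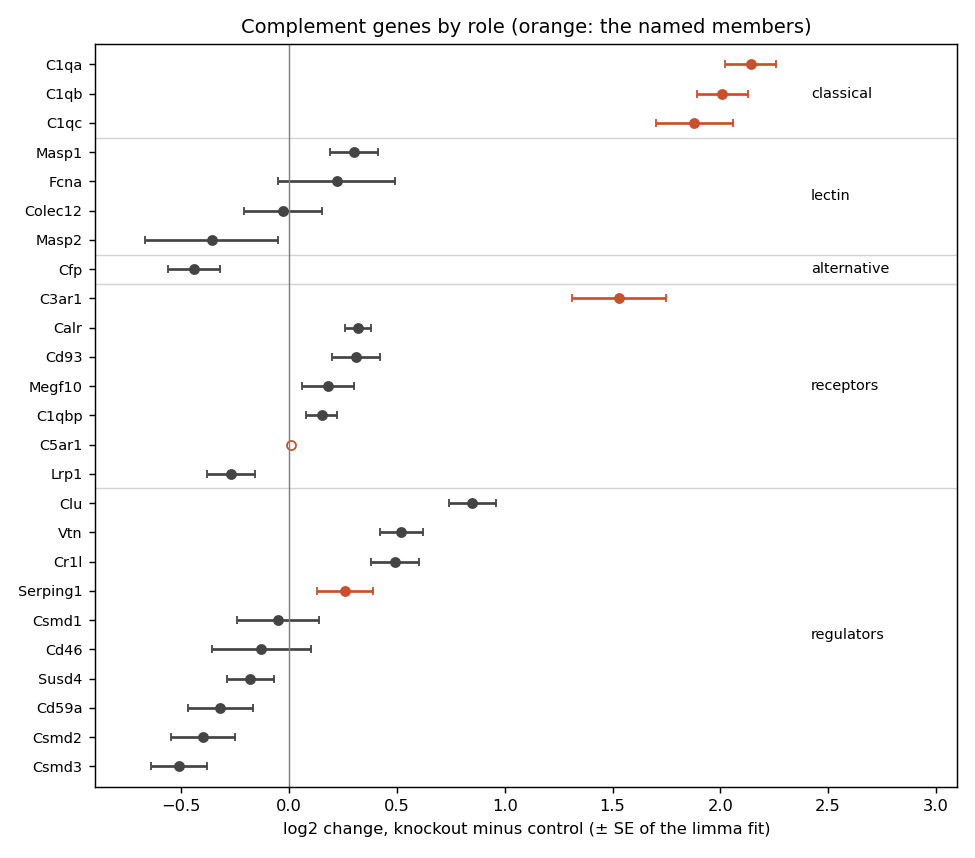
Log2 change (knockout minus control, ± SE of the limma fit) of the tested complement genes and the members, grouped by their role in the cascade, at the brightest tested probe set of each. Orange marks the members and the open circle C5ar1, which was not tested, and C3 and C4b are not shown; the C1q chains and C3ar1 lie above 1.5 and every other gene between -0.51 and 0.85.

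Genes of other proteins that carry a C1q domain were counted next. Of 15 tested, 1 rose and 2 fell, a share of 20% changed against 27.3% of all genes, with a median log2 change of 0.15. C1qtnf4, a secreted C1q/TNF-related protein of the brain, fell from 3059.9 and 3507.2 to 1395.2 and 1264.6 (-1.29 ± 0.11, adjusted p = 8.36e-05). Cbln1 (cerebellin), which organises synapses, fell from 3448.1 and 3482.5 to 1832.1 and 1888.2 (-0.89 ± 0.10, adjusted p = 0.000219). C1qtnf12 rose from 823.7 and 713.9 to 1585.8 and 1439.7 (0.96 ± 0.13, adjusted p = 0.000831), at 1 of 4 probe sets. These 3 calls held in all 14 alternatives, but with probe sets averaged the change was 0.51 for C1qtnf12, -0.56 for Cbln1 and -1.82 for C1qtnf4.

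Markers of the cells that make C1q in brain were also higher. Of 28 tested markers of microglia and macrophages, none of them complement genes of the set, 22 rose and 6 did not pass (78.6% rose, against 16.3% of all genes), with a median log2 change of 1.23. The count was 16 without knockout 1 and 16 without knockout 2. Their summed signal was 16090 to 16295 in the controls and 36999 to 38927 in the knockouts, and no marker was at 0 (lowest signal 28.5). Of the 28, 2 had a control mean under the cutoff. Many microglial genes had been seen to differ in an earlier look at these arrays, so this list is no independent evidence of its direction. In a whole-brain extract, more cells of a type and more RNA per cell cannot be told apart, and the part of these cells in the C1q values was not tested.

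Mpeg1 (perforin-2), an effector of macrophages, showed the largest change of the tested markers, from 384.7 and 447 to 2382.6 and 1981.3 (log2 change 2.35 ± 0.15, limma adjusted p = 1.27e-05). Fcrls, a microglial surface protein, followed at 1.85 ± 0.14, then Aif1 (Iba1) at 1.83 ± 0.21, the protease Ctss at 1.76 ± 0.10 and the Fc receptor chain Fcer1g at 1.68 ± 0.15, with adjusted p up to 0.000293. Csf1r, on whose signal microglia depend, went from 2423.2 and 2818.6 to 8423.7 and 7537.1 (1.60 ± 0.10). Trem2, a microglial lipid receptor, was too dim on average to be tested and read 33.9 and 28.5 against 406.6 and 289.9. Spi1, which encodes PU.1, did not pass (0.13 ± 0.27, adjusted p = 0.758), nor did Lyve1 (-0.12 ± 0.16, adjusted p = 0.632), a marker of macrophages at the brain's borders. Mrc1 and Pf4, other markers of those macrophages, rose by less than most of the list (0.39 ± 0.12 and 0.36 ± 0.11, adjusted p = 0.0444 and 0.0451), and both calls were lost whichever array was left out (0.29 to 0.49 and 0.30 to 0.42).

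Set beside these markers, the C1q chains lay at the upper end. Of the 28 tested markers, 1 (Mpeg1) had a larger change than any of the 3 chains and 27 a smaller one than all of them. Trem2, too dim to be tested, had a larger log2 difference still (2.93). These ranks take each chain at its brightest probe set. At the C1qb probe set 1434366_x_at the change was 1.74, which Fcrls (1.85), Aif1 (1.83) and Ctss (1.76) exceeded too. Without control 1, 6 of the 28 exceeded C1qc, the lowest chain, and without knockout 2, 3 did. The mean of the C1q chains minus the mean of the 28 markers, relative to the controls, was -0.13 and 0.13 in controls but 0.98 and 0.89 in knockouts (log2). The 28 include 6 that did not pass and span changes of -0.12 to 2.35, so this gap is to their average only. It was smaller for the markers with the larger changes, such as Fcrls, Aif1 and Ctss. C3ar1, at 1.53, lay inside the range of the markers. These are descriptions, since the chains were chosen on this contrast.

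**Figure D4:**
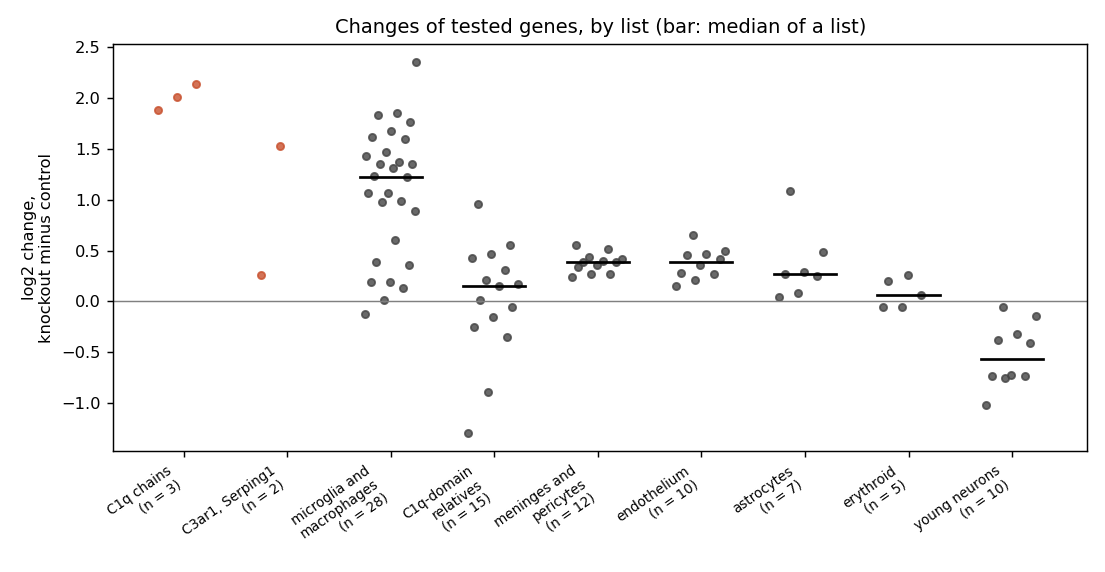
Log2 change (knockout minus control) of each tested gene by list, at its brightest tested probe set, with the median of each list as a bar; the C1q chains and the members C3ar1 and Serping1 are orange. The C1q chains lie near 2 with Mpeg1 alone of the tested genes shown above them, and the lists of other cell types shown have medians between -0.56 and 0.39.

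Markers of other cell types were counted beside these. Of all genes tested 16.3% rose and 11% fell. The shares that rose were 58.3% of the meningeal and pericyte, 50% of the endothelial and 28.6% of the astrocyte markers, the last resting on 2 genes. Of markers of meninges and pericytes 7 of 12 rose, by 0.36 (Pdgfra) to 0.56 (Ogn), among them Vtn (0.52), Rgs5 (0.42), Col1a2 (0.40) and Col3a1 (0.39). Of endothelial markers 5 of 10 rose, namely Tek (0.65), Cdh5 (0.50), Kdr (0.47), Esam (0.46) and Cldn5 (0.42). Without single arrays these calls were often lost, as for Ogn without control 1 (0.47) and knockout 2 (0.32), Rgs5 and Tek without control 1 (0.22 and 0.42), knockout 1 (0.35 and 0.60) and knockout 2 (0.49 and 0.71), and Esam likewise (0.32, 0.35 and 0.58). Cdh5 was lost whichever array was left out (0.49 to 0.52), Kdr without control 1 (0.47) or knockout 1 (0.34), and Cldn5 without control 1 (0.35), knockout 1 (0.43) or knockout 2 (0.41). Of astrocyte markers 2 of 7 rose, Aqp4 (1.09; lost without knockout 1, 1.17, and knockout 2, 1.0) and Aldoc (0.49). The control mean of Aqp4, 147.8, lay below the cutoff of 154.6, so it was bright enough to be tested only through the knockout arrays. Without the variance trend Vtn, Ogn, Rgs5, Col1a2, Col3a1, Tek, Kdr, Esam, Cldn5 and Aldoc were not called. Ogn, Rgs5, Tek, Kdr and Esam were also not called when no filter was applied. Of young neuron markers 8 of 10 fell, with Ina (-1.02), Tubb3 (-0.75), Dcx (-0.73), Nefm (-0.73) and Elavl3 (-0.72) the furthest.

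Circulating myeloid cells and liver, other sources of complement transcripts, gave little signal. Of markers of circulating myeloid cells 1 of 8 with a probe set was bright enough to be tested, and it did not pass (Plac8, -0.13, adjusted p = 0.783). Of liver markers 1 of 10 was, Apoa2, with a log2 change of 0.79 ± 0.34 (adjusted p = 0.117). In the controls Apoa2 had a mean signal of 132.3, below the cutoff, so it was bright enough to be tested only through the knockout arrays. Alb (albumin) read 55.1 and 57.1 against 74.1 and 104.5. Erythroid markers had a median log2 change of 0.06 over 5 tested genes, of which 0 passed in limma (0 at an unadjusted p under 0.05 too). The summed signals of the myeloid list were 630 to 723 in the controls and 689 to 724 in the knockouts. These sums come mostly from genes too dim to be tested, and those moved both ways. S100a8 read 77.8 and 87.2 against 109.4 and 142.2, and S100a9 69.7 and 40.5 against 110.1 and 131.8. Camp and Elane were lower in both knockout arrays. At these signals no direction is given for the list.

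The genes whose profile over the 4 arrays was most like the mean C1q profile were found by Euclidean distance in log2 units, among 12484 other genes and relative to the control mean. They were Thy1 (distance 0.19), a surface glycoprotein, Ccn3 (0.22), a matricellular protein, Apoe (0.25), a lipid carrier, Acvr1c (0.25), an activin-type receptor, Lyz1 (0.26), a lysozyme, Fcrls (0.27), Aif1 (0.30) and Mt1 (0.30), a metallothionein. Thy1 read 215.7 and 306.5 in the controls and 1066.5 and 1076.6 in the knockouts, and Apoe 1380.1 and 1698.6 against 5908.8 and 5183.7. Of the 8, Fcrls and Aif1 are on the list of microglia and macrophage markers, and the cells that make the others were not examined. Lyz1 and Ccn3 were read at probe sets with an x in the identifier, which can also bind related transcripts. The control mean of Acvr1c, 81, lay below the cutoff of 154.6, so it was among the genes compared only through the knockout arrays. With 4 arrays in 2 groups, any gene that differs by a like amount has a like profile.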

How the data were processed

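Per the submitters' processing notes, the authors made probe set signals with MAS5 5.0; the deposited values are intensities on a linear scale, with a mean of 1000 on each array after trimming 2% at either end. That scaling removes a shift of most transcripts, and detection calls were not used. A build of the genome is not given in the sources. RNA input was 100 ng, per the labels.

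Of 45101 probe sets, 64 array controls were left out. Of the rest 34945 had 1 symbol, 932 several and 9160 none in the platform table; only those with 1 were named. Signals were taken as log2(signal + 16). Probe sets whose mean lay above the 40th percentile (7.41, signal 154.6) were kept, and tested in limma (version 3.58.1, R 4.3.3) by lmFit and eBayes, allowing the variance to follow the signal (2 residual and 8.33 prior degrees of freedom) and Benjamini-Hochberg adjustment over 27022 probe sets. Rose and fell mean an adjusted p under 0.05. A gene took its brightest tested probe set. Only the limma step was run on simulated data, with independent noise, and no result here rests on that run.

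Members and lists were chosen with earlier results of these data known. Named were all members, all called genes of a list up to 5 (all 6 for complement) or else the 5 largest changes, and the 8 likest profiles; other genes were named after their values were seen. Alternatives were quantile normalization, median centring, other pseudocounts, filters and variance models, a replicate block, each array left out and probe set means.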

Additional observations from a re-analysis of the deposited data

How the results depend on the processing

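The count of changed probe sets was 6277, and 3114 without the variance trend. With 1 array left out it ranged from 3132 to 5422. The complement genes changed outside the members numbered 6, and 1 without the variance trend, with a range of 3 to 6 when 1 array was left out. The C1q-domain relatives changed numbered 3, but 5 with median centring and 5 with probe set means per gene. The members were chosen on this comparison, so their count under the threshold is no test; it was 8, of which 3 were C3ar1 probe sets bright enough only through the knockout arrays, and 5 with a filter at the 60th percentile, and 6 to 8 with 1 array left out. The difference between the C1q chains and the other complement members, 1.41, was 1.61 with probe set means per gene, 1.12 without C5ar1 (an alternative chosen after seeing the data) and 1.26 to 1.56 with 1 array left out. The mean change of the C1q chains was 1.93 to 2.13 over the alternatives other than the omission of control 1 (1.89). The macrophage markers changed numbered 15 to 23. With the filter at the 60th percentile fewer were tested. There 15 of 17 macrophage markers rose, against 22 of 28 in the main analysis, and 5 of 6 member probe sets passed, against 8 of 9. Among all tested probe sets 2918 of 18015 rose at that filter, against 3152 of 27022 in the main analysis. No value reversed its direction among those followed across settings and called in the main analysis.

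With the replicate block 6844 probe sets were called, and the counts for the complement, C1q-domain and macrophage lists and the members were unchanged at 6, 3, 22 and 8. Same-numbered arrays deviated with a correlation of 0.003, and nothing in the labels says that the numbers pair the samples. Arrays left out leave a lone array that is assumed to vary like the pair. Signal near background limits C5ar1 and the terminal components, and 2 arrays per group limit every value.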
